A study of Mus musculus with 6 samples.

Results

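The thalamic reticular nucleus (TRN) was read as a set of 204 capture spots out of 20336 spots that were kept in 6 coronal mouse brain sections. Spots were chosen by a score made from the values themselves. In each section the counts of unique molecular identifiers (UMIs) of Six3, Spp1, Pvalb and Ecel1 in a spot were scaled to the spot's total (CPM), divided by the section mean and averaged, and the 1% of spots with the highest average were taken. These 4 genes are therefore used to find the nucleus and are not results about it. By section the score found 36 and 33 spots at P21, 29 and 33 spots for adult mice, and 37 and 36 spots for aged mice.

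Every section came from 1 untreated male C57BL/6J mouse, and the question of the study was how gene expression across the brain changes from the juvenile to the old animal. The P21 group held 2 mice at postnatal day 21 bred in-house from wild-type animals, the adult group 2 mice of 12 to 15 weeks, and the aged group 2 mice of 28 months. RNA was captured from formalin-fixed, paraffin-embedded tissue with probes on an array of barcoded spots (Visium), each of which covers several cells. P21 and adult sections were run on version 1 slides, whereas both aged sections were run on version 2 slides through the CytAssist instrument. For the aged libraries the study also describes an enhanced probe design. Age, slide version and probes thus cannot be told apart for the aged group.

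Member spots held 1436146 and 426202 UMIs at P21, 758813 and 993108 in adult sections and 1006947 and 960877 in aged sections. The second P21 section was the shallowest, with a median of 13565 UMIs in a member spot against 43300.5 in the first, while the adult and aged medians lay between 26884 and 29225. At these depths 3 UMIs in the summed members of a section equal 2.12 to 7.29 CPM, and lower levels were not measurable. With 2 sections per age, each p-value of an age change below rests on the spread between sections of the same age, shared over all 6. The p-values that compare age changes between regions have the section as a block. They rest on how the difference between regions varied from section to section. A spot sums the RNA of its cells, so that fewer cells of a type and less RNA per cell cannot be told apart.

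The TRN is a thin sheet of inhibitory neurons that wraps the lateral face of the thalamus. Its neurons use GABA, receive collaterals from the axons that pass between thalamus and cortex, and send their own axons back into the relay nuclei, so that they gate sensory traffic. They are known for parvalbumin, for T-type calcium channels that drive rhythmic bursts in sleep, and for gap junctions between neighbouring cells, and the myelinated thalamocortical and corticothalamic fibres cross the nucleus.

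The position of the members was not part of the score, and most of them lay together. Joining spots that touch on the array gave 1 largest patch per section, with 25 and 25 spots at P21, 20 and 27 in adult sections and 34 and 34 in aged sections, 165 spots in all. This was 69.4% and 75.8% of the members at P21, 69.0% and 81.8% in adult sections, and 91.9% and 94.4% in aged sections. The lowest value of any aged section was thus above the highest of the other 4. Each patch was a narrow curved band beside the spots rich in thalamic relay genes.

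**Figure D1:**
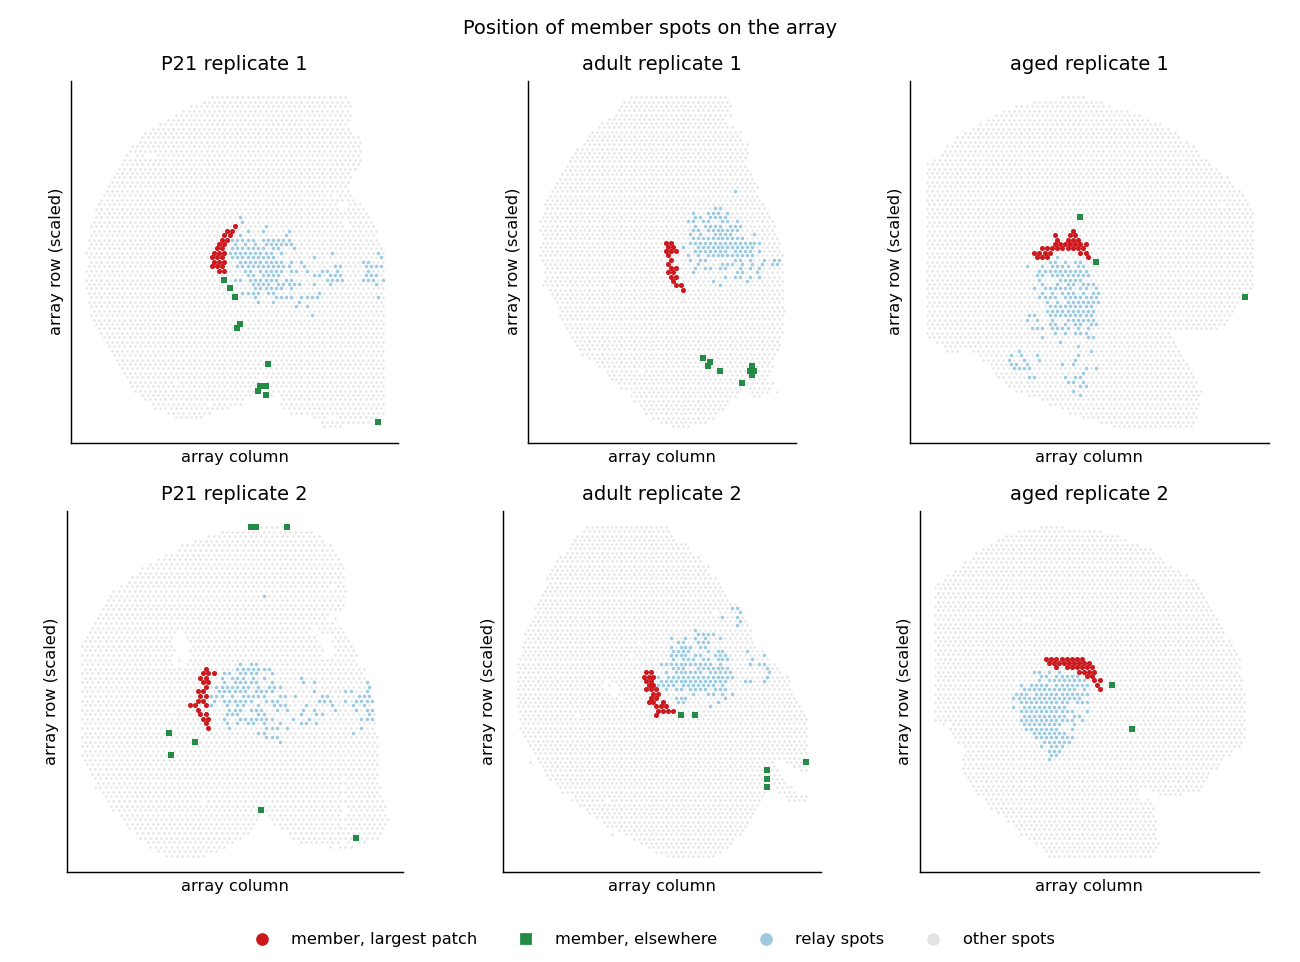
Array position of the spots in each of the 6 sections, with members in the largest patch in red, members elsewhere as green squares, thalamic relay spots in light blue and all other spots in grey. Axes are array columns and rows. The red spots form 1 band of 20 to 34 spots along the relay spots in every section. The 39 green members lie outside it, singly or in groups of up to 4 touching spots.

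The 39 members outside the patches were kept in a separate account, since many of them went against the label. Of these, 27 were led by Spp1, the secreted phosphoprotein osteopontin that is also made outside the nucleus, 7 by Ecel1 and 5 by Six3. A total of 18 held more than 5000 CPM of Ptgds, a prostaglandin synthase abundant in the meninges, and 21 had no UMI of Gad1, which encodes a GABA-synthesising enzyme. The other 18 had a Gad1 UMI, and 14 of the 39 held UMIs of all 4 score genes. Within the patches 1 of 165 spots had no Gad1 UMI, 118 spots were led by Six3, 40 by Spp1, 7 by Pvalb and 0 by Ecel1. The 39 lay singly or in groups of up to 4 touching spots and are called scattered below. Some held levels within the range of the patch, as 1 in P21 replicate 1 with 2380 CPM of Pvalb and 433 CPM of Gad1. Results that rest on the scattered spots are given below with and without them.

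The margin of the score was narrow. The lowest score taken was 8.03 and 8.95 at P21, 9.47 and 10.3 in adult sections and 10.4 and 11.3 in aged sections, and the highest score left out was 7.78 and 8.90, 9.12 and 10.3, and 10.2 and 10.7, in the same order. Among the score genes Pvalb, the calcium buffer of fast-spiking neurons, had the highest member level, from 2249 to 4898 CPM in the 6 sections against 130 to 267 CPM in the rest of the section. Six3 (chr17:85613608-85629302, plus strand, GRCm38), a transcription factor of the ventral forebrain, stood at 434 to 1101 CPM against 17.2 to 31.2. The peptidase gene Ecel1 differed between sections, with 70.3 and 129 CPM in P21 members against 50.0 and 57.0 in the rest, 112 and 69.5 against 30.2 and 39.6 in adult sections, and 31.8 and 31.2 against 34.0 and 32.6 in aged sections. In the patches its mean log2 ratio was 0.02.

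Markers of the nucleus that were not in the score were far above the rest of the section in all 6 sections. Gad1 (ENSMUSG00000070880, chr2:70553072-70602014, plus strand, GRCm38) stood at 317 and 291 CPM in P21 members, 331 and 372 in adult members and 1220 and 1068 in aged members, against 32.3 to 87.0 CPM in the rest. Gad2, the other GABA-synthesising enzyme, stood at 844 and 1002, 942 and 987, and 2405 and 2624 CPM. Isl1, a homeobox factor of prethalamic neurons, stood at 35.6 to 46.0 CPM in P21 and adult members, and at 96.3 and 119.7 in aged members. No member value of these 3 genes overlapped the values of the rest, and the aged members were highest for each. These member levels and those of the next 3 paragraphs are plain CPM, not adjusted for composition, and since they come from the spots that were chosen, they are given without a test.

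**Figure D2:**
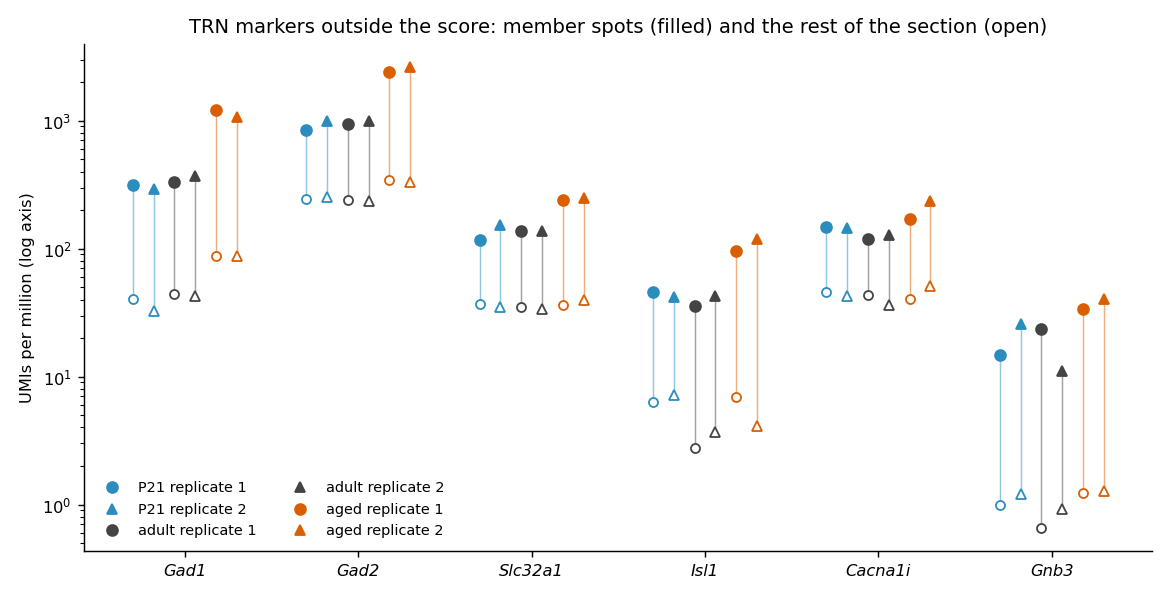
Plain CPM (log axis) of Gad1, Gad2, Slc32a1, Isl1, Cacna1i and Gnb3 in the summed members (filled) and in the rest of the section (open), with circles for replicate 1 and triangles for replicate 2. Gad1 in members runs from 291 to 1220 CPM and lies above the rest in every section.

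With the score genes left out, the gene with the highest ratio of members to the rest among those of at least 20 CPM on average in either was Pln (chr10:53337667-53345987, plus strand, GRCm38), which encodes phospholamban, a regulator of the calcium pump of the endoplasmic reticulum. Pln stood at 47.3 and 72.7 CPM in P21 members, 58.0 and 65.5 CPM in adult members and 77.5 and 67.6 CPM in aged members, against 1.89 to 5.22 CPM in the rest, a mean log2 ratio of 4.02 ± 0.61 (SD, n = 6 sections). Frem3, an extracellular matrix gene, followed with 75.2 to 156 CPM against 4.39 to 8.98, and Trh, the precursor of thyrotropin-releasing hormone, with 77.8 to 242 CPM against 5.86 to 14.0. Mean log2 ratios between 2.998 and 3.55 were found for Gnb3, Lancl3, Megf11, Isl1, Kcng4, Gad1, Lgi2, Esrrg, Ubash3b, Lrrc38, Gm2115 and Kcns3. Of these Kcng4, Lrrc38 and Kcns3 encode potassium channel subunits, Lgi2 a secreted synaptic protein and Esrrg a nuclear receptor. All 15 genes of highest ratio were also the 15 of highest ratio in the patches alone.

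In total 85 of 8868 genes with at least 20 CPM on average in either set were more than 2-fold higher in members in all 6 sections, and 45 were more than 2-fold lower. The lowest were Gm11549, Itpka, Chrm3, Neurod2 and Slc30a3, with mean log2 ratios from -2.76 to -2.82. Neurod2, a transcription factor of cortical excitatory neurons, stood at 25.8 and 28.2 CPM in P21 members and 40.9 and 24.2 in adult members, and at 0.993 and 4.16 in aged members. The 0.993 CPM of aged replicate 1 lay under the 3-UMI floor of 3.095 CPM. Slc17a6, the vesicular glutamate transporter of relay neurons, stood at 75.9 and 46.9, 34.3 and 47.3, and 60.6 and 21.9 CPM against 112 to 186 in the rest. The interneuron factor Lhx6 was near the floor in the members, at 0 to 11.9 CPM, and the pallidal factor Npas1 at 0 to 7.04 CPM. The list of markers of the globus pallidus and other Pvalb projection neurons was nevertheless above the rest as a sum, at 179% and 162% in P21 members, 175% and 169% in adult members and 172% and 136% in aged members, with Kcng4, named above, as its most abundant gene. Of its 8 genes, however, 1 lay above the rest in all 6 sections and 4 lay below it in all 6, with a median mean log2 ratio of -0.81.

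Across the edge of the patch the level of Gad1 fell within 1 or 2 spots, but not every gene did so. Gad1 at 1 step from the patch was 31.0% and 31.3% of its patch level at P21, 43.2% and 29.9% in adult sections and 45.5% and 39.7% in aged sections, and at 2 steps it was 9.35% to 20.1%. Slc17a6 ran the other way, from 22.3 to 66.9 CPM in the patch to 149 to 371 CPM at 3 steps. At 1 step Isl1 was at 107% of its patch level in aged replicate 1 and at 15.3% to 50.8% in the other sections. Sst, somatostatin, was at 104% at 1 step and 64.2% at 2 steps in adult replicate 1. In the other sections Sst at 1 step was at 46.3% to 87.1%. Slc17a7, the vesicular glutamate transporter of cortical neurons and of some relay neurons, was present in the patch at 912 and 673 CPM at P21 and 963 and 870 in adult sections, and at 96.9 and 67.0 in aged sections. At 7 or more steps it ran from 1659 to 2174 CPM over the 6 sections.

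**Figure D3:**
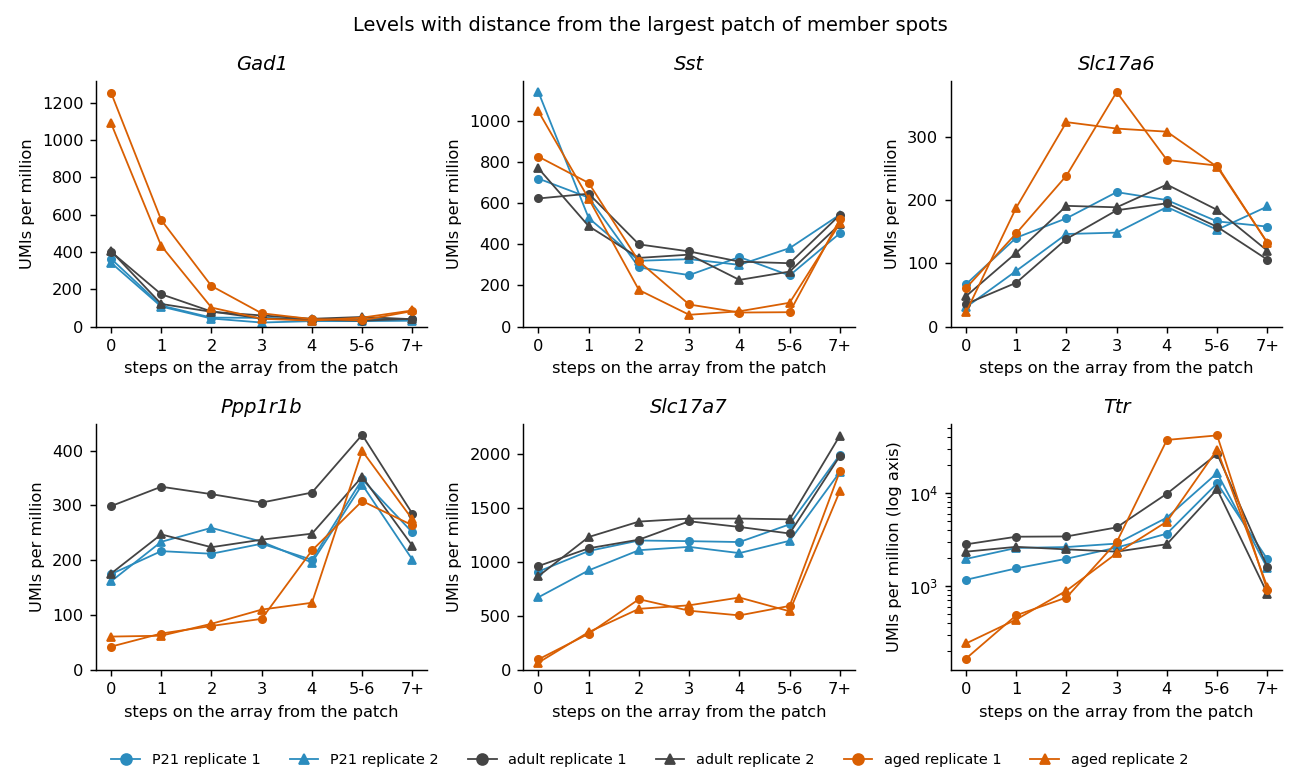
Plain CPM of Gad1, Sst, Slc17a6, Ppp1r1b, Slc17a7 and Ttr (Ttr on a log axis) against the number of array steps from the largest patch, 1 line per section. Gad1 falls to 9.35% to 20.1% of its patch level within 2 steps, and the aged lines start lower than the others for Slc17a7 and Ttr in the patch.

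Correlations between genes over the spots of 1 patch are given as a description. Spp1 and Sst, which encodes somatostatin, ran against each other, with Spearman correlations over the 25 and 25, 20 and 27, and 34 and 34 patch spots of -0.52 and -0.30 at P21, -0.38 and -0.33 in adult sections and -0.64 and -0.54 in aged sections. Spp1 and Gad1 ran together, from 0.18 to 0.61. Ecel1 and Sst ran together in 5 patches, from 0.25 to 0.62, and at -0.22 in the second P21 section. No conclusion is drawn from these values, since the spots of a patch share a library, differ in depth and are neighbours. Spp1 and Ecel1 were also in the score, so that the choice of spots can shape their correlations.

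Markers of other regions were compared as the summed CPM of a list in members, in percent of the same sum in the rest of the section. Cortical excitatory markers stood at 44.1% and 40.8% in P21 members, 47.0% and 40.5% in adult members and 8.46% and 7.49% in aged members, with Slc17a7 as the most abundant gene. Striatal markers stood at 74.2% to 94.5% in P21 and adult members and at 11.7% and 13.7% in aged members. Choroid plexus markers, of which Ttr was the most abundant, ran from 41.2% to 145% at the earlier ages and stood at 6.10% and 13.6% in aged members. As a sum, thalamic relay markers differed less between ages, from 74.7% to 92.5%, with Ramp3 as the most abundant gene. Of these 10 genes, however, 6 lay below the rest in all 6 sections and 1 above it, with a median mean log2 ratio of -0.87. Markers of the nucleus itself stood at 398% to 475% at the earlier ages and at 805% and 843% in aged members. Aged members thus held a smaller share of cortical, striatal and choroid RNA than either earlier age in each section, on the other slide version, and the part of this in the age differences below was not tested.

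Meningeal and vessel wall markers stood at 862% and 455% of the rest in P21 members, 931% and 560% in adult members and 158% and 118% in aged members. In the patches alone they were 58.1% to 126%. Their summed level in all members was 3826 and 1856 CPM, 6958 and 3006, and 944 and 752, with Ptgds as the most abundant gene, so that the excess lay in the scattered members of the P21 and adult sections.

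**Figure D4:**
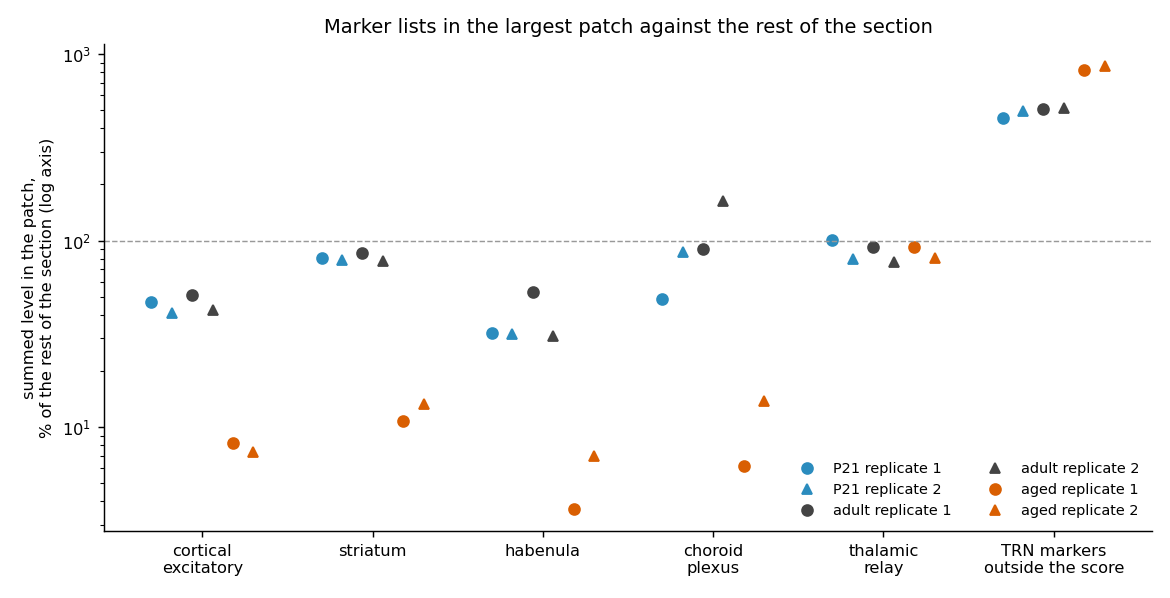
Summed marker level in the patch in percent of the rest of the section (log axis), for cortical excitatory, striatal, habenular, choroid plexus, thalamic relay and TRN markers in the 6 sections. The aged points lie below the P21 and adult points for the cortical, striatal, habenular and choroid lists and above them for the TRN list.

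The first comparison asked how the nucleus at P21 differs from the adult. With edgeR's quasi-likelihood test on the UMIs summed over members, 302 of 10739 genes were called, which asked for a Benjamini-Hochberg adjusted p below 0.05 together with a change of more than 1.5-fold. Of these 198 were higher at P21 (1.84% of the genes tested) and 104 lower (0.968%), and the median log2 change over all genes was -0.00. In the patches alone 225 of 10355 genes were higher (2.17%) and 103 lower (0.995%), with 250 genes called in both. Without scaling for composition 168 were higher and 140 lower. Levels from here on are CPM scaled by edgeR's normalization factors, and changes are log2 fold changes relative to the adult.

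Calls among genes that mark the nucleus are read beside the shares over all genes, 1.84% higher and 0.968% lower. Of 6 TRN markers tested, 0 passed in either direction, and their median difference was 0.05. At these shares a list of 6 genes would mostly hold 0 calls, so the count alone is no result about the markers. Of the 85 genes more than 2-fold higher in members in all 6 sections, 1 was higher at P21, Trh, and 4 were lower, Tpm2, Unc13c, Efemp1 and Coch, shares of 1.18% and 4.71% against 1.84% and 0.968% of all genes, with 2 and 2 called in the patches. Gad1 differed by -0.15 (adjusted p = 0.668 by edgeR), Gad2 by -0.02 and Slc32a1, the vesicular GABA transporter, by -0.05. Counts of 0 were also found among 10 genes of GABA synthesis and transport, 11 prethalamic transcription factors, 11 burst firing channels, 13 fast spiking channels, 12 GABA-A receptor subunits, 17 presynaptic genes and 4 neurofilament genes. Lists of these sizes would also hold few or 0 calls at the shares over all genes, so these counts are no result about the lists. At an unadjusted p under 0.05 the numbers were 0 for the TRN markers and the neurofilaments, 2 for GABA synthesis and transport, 3 each for fast spiking channels and presynaptic genes, and 1 each for the other lists, and DESeq2 called none of the 6 TRN markers. In the patches 1 gene of GABA synthesis and transport was higher, the chloride importer Slc12a2, and 1 presynaptic gene lower, Pclo. Nearest to the threshold among the fast spiking channels was Scn4b, a sodium channel subunit of fast-spiking neurons, at -0.50 (adjusted p = 0.052 by edgeR). Cacna1g, one of the T-type calcium channels, read 39.6 and 21.9 CPM at P21 against 15.7 and 18.9, a difference of 0.98 that did not pass (adjusted p = 0.147 by edgeR).

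Of the gene lists, structural myelin had the most members that rose. Of 16 structural myelin genes tested, 13 were higher at P21 and 0 lower, with a median change of 1.51 against -0.00 over all genes. Cldn11, the tight junction protein of the myelin sheath, stood at 1530 and 1623 CPM at P21 against 421 and 381 in adults, 1.97 ± 0.13 higher (SE, adjusted p = 6.65e-11 by edgeR). Mbp, a main protein of compact myelin, stood at 15720 and 20027 CPM against 7093 and 8132 (1.23 higher), and Mag, a glycoprotein of the inner myelin membrane, at 1756 and 2112 against 541 and 683 (1.65 higher). Both P21 sections lay above both adult sections for these genes. For 0 of the 16 did the age change pass the test of a difference from the rest of the section or from relay spots, so the myelin rise was not shown to be particular to the nucleus.

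Genes of the oligodendrocyte lineage before myelination were higher as well, with 5 of 10 higher and 0 lower. Gpr17, a receptor of newly forming oligodendrocytes, stood at 115 and 126 CPM at P21 against 11.8 and 22.8 in adults (2.72 ± 0.26 higher, adjusted p = 1.02e-07 by edgeR). Enpp6, another marker of new oligodendrocytes, stood at 93.4 and 124 CPM against 22.2 and 30.8. The others were Olig1, Sox10 and Tnr, at 0.82, 1.14 and 0.65. Bmf, a cell death regulator, and Gsn, the actin-severing protein gelsolin that oligodendrocytes hold in quantity, rose by 2.40 and 2.53.

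Of 15 cholesterol synthesis genes, 10 were higher and 0 lower at P21 (median 0.92). Hmgcs1, which makes the precursor of the pathway, stood at 487 and 491 CPM against 155 and 153 (1.66 ± 0.13 higher, adjusted p = 1.7e-09 by edgeR), and Sqle, a later oxidation step, was 1.31 higher. For Hmgcs1 the rise was 0.58 larger in the nucleus than in the rest of the section (adjusted p = 0.0131 for the region-by-age term by edgeR), just under the 1.5-fold threshold, and 0.65 larger in the patches (adjusted p = 0.000851), where it was called. The background of that test is given with the region-by-age results.

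Of 10 interneuron peptide and calcium-binding genes 3 were higher and 0 lower, the peptide genes Npy and Trh and the calcium-binding gene Calb2. Npy, neuropeptide Y, stood at 333 and 311 CPM at P21 against 182 and 178 (0.85 ± 0.13 higher, adjusted p = 0.000129 by edgeR). Trh stood at 114 and 250 CPM against 77.1 and 84.4 (0.98 higher, adjusted p = 0.0226), with the first P21 section much nearer to the adults than the second. Calb2, calretinin, stood at 86.4 and 48.6 against 27.4 and 39.7 (1.12 higher, adjusted p = 0.0217). Sst read 706 and 1079 CPM against 564 and 727, which did not pass (0.43, adjusted p = 0.162 by edgeR).

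Genes of growing axons and of the extracellular net around fast-spiking neurons each gave 3 higher and 0 lower, of 13 and 10 tested. Marcksl1, an actin regulator of immature neurons, stood at 265 and 267 CPM against 49.6 and 56.6 (2.31 ± 0.18 higher, adjusted p = 2.94e-09 by edgeR), and Tubb2b, a tubulin of growing neurites, was 0.68 higher. Adamts4, a protease that cuts net proteoglycans, stood at 87.1 and 104 CPM against 31.4 and 36.8, and Ncan, the proteoglycan neurocan, at 137 and 160 against 74.5 and 75.5. Nfasc, which assembles nodes of Ranvier, was 1.14 higher. Of 6 electrical synapse genes Gjd2, the neuronal gap junction protein connexin 36, was higher in all members (55.2 and 82.6 CPM against 27.4 and 33.8, adjusted p = 0.0295 by edgeR), but in the patches alone it did not pass (0.84, adjusted p = 0.0903).

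Among genes lower at P21, Il33 (chr19:29925114-29960718, plus strand, GRCm38), an interleukin made by oligodendrocytes and astrocytes, fell furthest of those named here, with 11.3 and 26.7 CPM at P21 against 152 and 190 (-3.50 ± 0.27, adjusted p = 1.48e-09 by edgeR). Il33 was also low in the rest of the section, at 14.6 and 14.7 CPM against 130 and 129, and the change in members differed from that by -0.39, which did not pass (adjusted p = 0.903). Unc13c, a presynaptic priming factor, stood at 171 and 192 CPM against 323 and 485 and fell by 0.66 more than in the rest (adjusted p = 0.00973 by edgeR). Egr1, an activity-induced transcription factor, stood at 18.4 and 38.9 CPM against 78.4 and 48.7, the clock output gene Dbp at 99.1 and 85.1 against 187 and 196, and 2 of 13 circadian genes and 1 of 11 immediate early genes were lower with none higher.

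Some calls were of genes that mark other tissue. The haemoglobin gene Hbb-bs stood at 2570 and 515 CPM at P21 against 148 and 49.7, and all 3 erythrocyte markers tested were higher. The smooth muscle gene Acta2 stood at 21.9 and 17.0 CPM against 69.2 and 248, and was 2.98 lower, or 1.51 lower in the patches (adjusted p = 0.0497 by edgeR). Its partners Tagln and Myh11 were lower in all members, by 2.73 and 1.99, but did not pass in the patches, nor did the lower Vim (-0.05 there). The hypothalamic peptide gene Pmch stood at 501 and 141 CPM against 7.84 and 118, which followed its level in the rest of the section, where it was at 705 and 510 CPM against 28.8 and 415. These genes are markers of blood, vessels and hypothalamus. The source of their changes was not tested, nor was their part in other calls.

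The second comparison asked how the nucleus of the aged mouse differs from that of the adult. The adult sections are the same as above. With edgeR's quasi-likelihood test 881 of 10740 genes were higher in aged members (8.2%) and 1091 lower (10.2%), against a median log2 change of 0.01 over all genes. Counts in gene lists below are read beside these shares. In the patches alone 703 of 10352 genes were higher (6.79%) and 900 lower (8.69%), with 1421 genes called in both. Without scaling for composition 702 were higher and 1246 lower. Slide version, probe design, software version and the smaller share of other regions' RNA in the aged members go with age here, and none of them can be told apart from it.

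Genes that mark the nucleus were higher. All 6 TRN markers tested passed (median 1.33), and 5 passed in the patches. Gad1 stood at 1268 and 1101 CPM in aged members against 328 and 367 in adults (1.77 ± 0.12 higher, adjusted p = 3.95e-11 by edgeR), Gad2 at 2499 and 2706 against 934 and 974 (1.45 higher), and Isl1 at 100.1 and 123 against 35.3 and 41.7 (1.52 higher). The aged sections lay above both adult sections for each. Of 10 genes of GABA synthesis and transport 5 were higher and 1 lower, the chloride exporter Slc12a5 at 38.2 and 31.1 CPM against 69.2 and 72.5. Prethalamic transcription factors gave 4 higher and 0 lower of 11, namely Isl1, Dlx5, Esrrg and Esrrb. Cacna1i, a T-type calcium channel of the nucleus, stood at 175 and 242 CPM against 119 and 126 (0.76 higher), and in the patches its change of 0.57 was too small to be called.

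The same direction held for genes chosen by their member-to-rest ratio. Of the 85 genes more than 2-fold higher in members in every section, 58 were higher in aged members (68.2%, against 8.2% of all genes) and 2 lower (2.35%), with a median change of 0.80, and in the patches 48 were higher and 0 lower. At P21 the same genes had a median of 0.02. Of the 45 genes more than 2-fold lower in members, 42 were tested in each comparison. In aged members 0 were higher and 37 lower (median -2.45), and at P21 1 was higher and 0 lower. Genes high in the nucleus were thus higher, and genes low in the nucleus lower, in the aged members, so that the contrast of members to their surroundings was larger on the aged sections. These lists were chosen on the same spots and are no independent evidence of a direction.

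Fast spiking channels were higher in 9 of 13 genes and lower in 1, with 6 and 1 in the patches. Scn1a, the sodium channel of fast-spiking inhibitory neurons, stood at 610 and 632 CPM against 246 and 287 (1.21 ± 0.12 higher, adjusted p = 4e-08 by edgeR). Kcnc1, which repolarises these neurons, stood at 899.7 and 875 CPM against 453 and 447 (0.98 higher). Kcnab1, an auxiliary subunit, was the exception at 41.3 and 49.4 against 88.8 and 127. All 4 neurofilament genes tested were higher, from 0.64 to 0.91, with Nefl at 1261 and 878 CPM against 649 and 610, and 2 of them passed in the patches. Of 14 nuclear genes of the respiratory chain 3 were higher, among them Atp5b at 1592 and 1854 CPM against 889.8 and 1026.

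Burst firing channels gave 2 higher and 2 lower of 11, or 1 and 2 in the patches. Over all genes the shares in members were 8.2% higher and 10.2% lower. Kcnn2, the calcium-gated potassium channel that shapes the burst, stood at 212 and 171 CPM against 105 and 97.4. Cacna1e, an R-type calcium channel, was 3.75 lower. GABA-A receptor subunits gave 1 higher and 6 lower of 12. The one that rose was Gabra3, the alpha subunit characteristic of the TRN, at 66.0 and 92.3 CPM against 47.0 and 40.7 (0.86, adjusted p = 0.0069 by edgeR). Gabra5, another alpha subunit, was 2.97 lower.

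Glutamate receptors gave 3 higher and 5 lower of 17, and 1 and 5 in the patches. Grm3, a metabotropic receptor found in the TRN, stood at 382 and 398 CPM against 208 and 223 (0.85 ± 0.12 higher, adjusted p = 1.19e-05 by edgeR), and its change exceeded that of the rest of the section by 1.02 and that of relay spots by 1.42. Gria1, an AMPA receptor subunit, stood at 36.1 and 11.8 CPM against 252 and 235 (-3.32 ± 0.25, adjusted p = 4.03e-10). Presynaptic genes gave 5 higher and 3 lower of 17. Vamp1, the vesicle protein of fast synapses, stood at 674 and 620 CPM against 252 and 276, and Sv2b, a vesicle protein of excitatory terminals, at 27.9 and 16.1 against 94.1 and 107. In these 2 mixed lists Grm3 and Vamp1 were among the genes that rose, and Gria1 and Sv2b among those that fell.

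Peptides and calcium-binding proteins gave 2 higher and 7 lower of 10. Npy stood at 302 and 310 CPM in aged members against 182 and 178 (0.77 higher), and Trh at 154 and 137 against 77.1 and 84.4 (0.84 higher). Penk, the enkephalin precursor of striatal neurons, stood at 7.22 and 4.29 CPM against 145 and 114, and Cck at 198 and 115 against 440.3 and 374. Vip fell from 35.3 and 20.9 CPM to 0 and 0, and Nts from 6.53 and 12.9 to 0 and 0, where no fold is given. The median of the list was -2.13, or -1.74 with Vip and Nts set at the 3-UMI floor. Sst read 852 and 1055 CPM against 564 and 727, a change of 0.56 that had an adjusted p of 0.00835 by edgeR but was under the 1.5-fold threshold.

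Unc13c, lower at P21, was higher in aged members at 707 and 864 CPM against 323 and 485 (0.95), and Coch, a secreted matrix protein gene, stood at 222 and 193 CPM and was 1.04 higher. Unc13c rose by 1.32 more than in the rest of the section (adjusted p = 4.49e-13 by edgeR). The 3 ages did not overlap for Unc13c, with P21 lowest and aged highest.

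Several glial genes of reactive states were higher. Of 8 reactive astrocyte genes 3 were higher and 1 lower. C4b (chr17:34728380-34743882, minus strand, GRCm38), a complement component, stood at 193 and 411 CPM in aged members against 43.1 and 43.7 (2.79 ± 0.26 higher, adjusted p = 2.1e-08 by edgeR). It stood at 253 and 205 CPM in the rest of the aged sections against 31.4 and 30.8, and the difference between the changes was -0.17 and did not pass (adjusted p = 0.799). Serpina3n, a protease inhibitor of reactive astrocytes, stood at 53.7 and 80.5 CPM against 3.92 and 9.93, and Gfap at 718 and 866 against 282 and 397. Vim, the exception, was lower in all members by 0.66 and read 0.73 in the patches, where it did not pass.

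Disease-associated microglia genes gave 6 higher and 0 lower of 11, or 5 and 0 of 10 in the patches. Of the aged members outside the patches, 2 of 3 in replicate 1 and 2 of 2 in replicate 2 were led by Spp1. This score gene is also made outside the nucleus, so that the choice of spots can shape the counts in all members. Trem2, a lipid receptor of microglia, stood at 54.7 and 45.1 CPM against 13.1 and 4.97 (2.53 ± 0.37 higher, adjusted p = 1.45e-05 by edgeR), a rise 1.495 larger than in the rest of the section (adjusted p = 0.00603). Gpnmb, at 14.4 and 34.3 CPM against 2.61 and 4.97, and Tyrobp and Cd68, at 0.95 and 1.03, were others. The 2.61 CPM of Gpnmb in adult replicate 1 lay under the 3-UMI floor of 3.92 CPM. Of 7 homeostatic microglia genes 1 was higher and 1 lower, the latter P2ry12 at -1.005. Ctsd, a lysosomal protease, stood at 391 and 394 CPM against 195 and 156, and the cell cycle inhibitor Cdkn1a at 48.5 and 44.0 against 17.0 and 5.96. Of 6 MHC class I genes 1 was higher, H2-D1, or 3 in the patches, H2-D1, H2-K1 and B2m. The 7 interferon-induced genes tested gave 0 higher and 2 lower, neither of which passed in the patches. Over all genes 8.2% were higher and 10.2% lower, so that 1 or 2 calls in members among 6 or 7 genes are no result about these lists. Heat shock genes gave 7 higher and 0 lower of 10, or 5 of 8 in the patches, although Hspa1b stood at 123 and 11.8 CPM against 14.4 and 13.9, so that 1 aged section carried its rise. For 0 of the 10 did the change pass the test of a difference from the rest of the section or from relay spots.

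**Figure D5:**
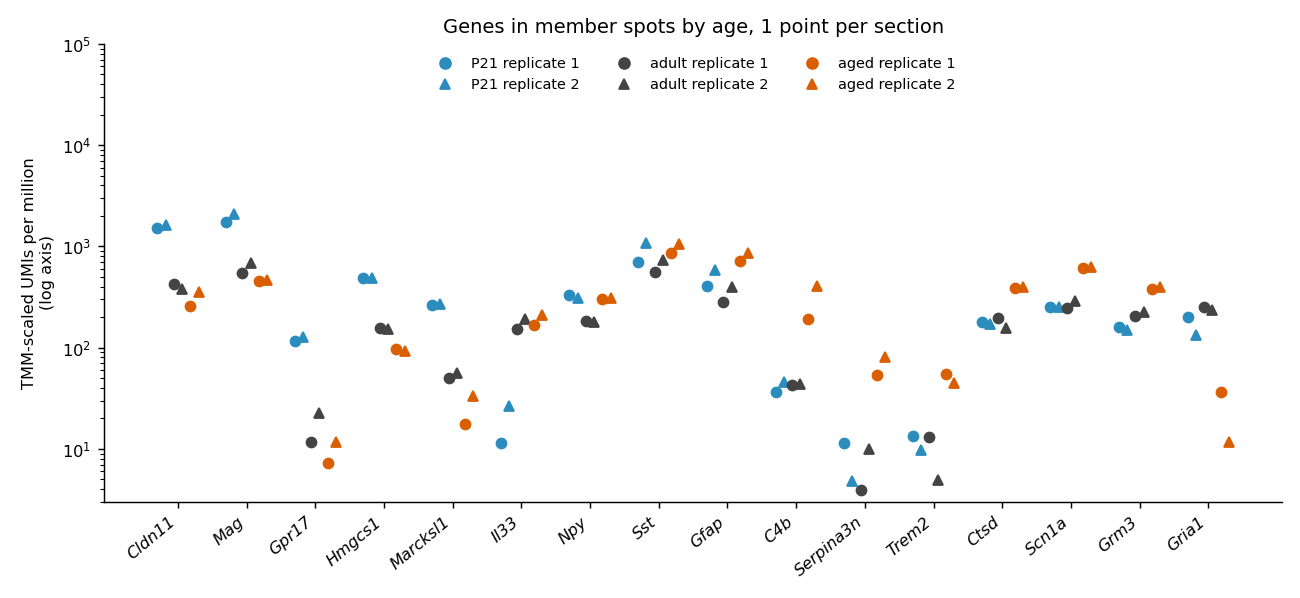
Composition-scaled CPM (log axis) of 16 genes in the summed members of each section, with P21 in blue, adult in grey and aged in orange, circles for replicate 1 and triangles for replicate 2. Cldn11, Mag, Gpr17, Hmgcs1 and Marcksl1 are highest at P21, Il33 is lowest at P21, and C4b, Serpina3n, Trem2 and Scn1a are highest in the aged sections.

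Myelin genes differed less from the adult in the aged members than at P21, with 0 higher and 2 lower of 16, or 0 and 4 in the patches, and a median of -0.15. The larger fall was that of Opalin, an oligodendrocyte membrane protein, which was 2.29 lower in members and went from 178 and 165 CPM to 20.9 and 25.3 in the rest of the section. Against the rest of the section the change was more upward in 6 of the 16 genes and more downward in 0, against 2.77% and 7.84% of all genes. The summed myelin level was 18713 and 21120 CPM in adult and 15778 and 18596 CPM in aged members, and 13851 and 13400 against 8762 and 8552 in the rest, in plain CPM. Cholesterol synthesis gave 0 higher and 6 lower of 15, among them Sqle, 1.05 lower. Axon growth genes gave 1 higher and 5 lower of 13, with Gap43 at 129 and 58.0 CPM against 379 and 404. Of 10 oligodendrocyte precursor genes 0 were higher and 3 lower.

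Cntnap2, an adhesion protein of the juxtaparanode, stood at 24.8 and 28.8 CPM in adult members and, at 1.03 and 0 CPM, lay under the 3-UMI floor of 3.095 and 3.22 CPM in aged members. In the rest of the section, where more UMIs were summed, it stood at 21.0 and 24.9 CPM in adult and 0.622 and 0.433 CPM in aged sections, so that the low level was not particular to the members. The part of the probe design of the aged libraries in this was not tested. Ptchd1, a gene whose loss disturbs TRN firing, read 1.15 and did not pass (adjusted p = 0.148). Of 10 genes linked to disorders of the TRN, 2 were higher, Scn1a and Cacna1i, and 2 lower, among them Cntnap2. Over all genes the shares were 8.2% and 10.2%, and in the patches 1 of the 10 was higher and 2 were lower.

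Markers of several other regions were lower in aged members, but not of all. The lower markers were 7 of 8 cortical markers (median -3.32, or -2.73 with Bhlhe22, at 0 in both aged sections, set at the floor), 8 of 8 striatal, 2 of 2 habenular and 4 of 4 choroid plexus markers, with 0 higher in each. The files held 9, 10, 6 and 8 genes of these lists. Genes were tested if seen in over 10% of member spots at either age, and those near the floor in aged members entered through the adult ones. The filter thus favoured falls, and these counts are no independent evidence of a direction. Hypothalamic markers gave 1 higher and 3 lower of 6. One of those lower, Hcrt at -3.11, read 4.0035 without adult replicate 2 and 1.41 with the top 2% of spots. There were 0 higher and 1 lower hippocampal markers of 3 (median 0.31), 1 and 0 pallidal markers of 2, or 0 and 1 in the patches, and 0 and 2 endothelial markers of 7. In percent of the rest, hippocampal markers stood at 101% and 107% in aged members, and hypothalamic ones at 14.1% and 132%. The hippocampal sum had Wfs1 as its most abundant gene, and of its 9 genes 2 lay above the rest and 6 below it in all 6 sections. Slc17a7 stood at 108 and 73.0 CPM against 870 and 818 (-3.21), and Ttr, transthyretin of the choroid plexus, at 170 and 244 against 2328 and 2024 (-3.39). Meningeal and vessel wall markers were lower in 12 of 12 genes, but in 1 of 8 in the patches, where Ptgds read 0.58 and Mgp -0.27. The fall of cortical and choroid markers was as large in the patches, whereas that of Ptgds, Mgp and Acta2 was not. Insulin-like growth factor genes gave 0 higher and 6 lower of 10, and 0 and 3 in the patches, with Igf2 reading 0.18 there and Igfbp2, 2.81 lower in all members, remaining called.

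The genes that rose most in aged members by the fixed rule were Serpina3n, C4b, Trem2, Arrdc2, Cd52, Th, Rbm20, Vsir, Sh3bp1 and Cdkn1a, from 2.08 to 3.17. Those that fell most were Slc13a4, Icam5, Synpr, Ccn3, Slc30a3, Mrc2, Doc2a, Gda, Itpka and Cartpt, from -4.49 to -6.53. Icam5, Slc30a3, Doc2a and Itpka are genes of forebrain excitatory neurons, and Slc13a4 is a sulphate transporter of the meninges and choroid plexus. In aged members these 10 read from 0 to 8.59 CPM, many of them under the 3-UMI floor, so that their fitted sizes and order are loose.

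The last comparison asked whether age changes in the nucleus differed from those nearby. Each was fitted as a region-by-age term with the section as a block, against 1017 thalamic relay spots, the spots richest in Prkcd, Abhd12b, Tnnt1 and Tcf7l2, and against the rest of the section. Against relay spots 20 of 12117 genes changed more upward at P21 (0.165%) and 30 more downward (0.248%), or 16 and 12 in the patches, and in aged sections 321 of 12057 more upward (2.66%) and 445 more downward (3.69%), or 246 and 277 in the patches. Against the rest of the section the P21 counts were 7 of 12273 upward (0.057%) and 17 downward (0.139%), which turned to 16 upward and 5 downward in the patches with 10 genes shared, to 15 and 9 without Spp1 in the score and to 6 and 3 with the top 2% of spots, and the aged counts 337 of 12187 upward (2.77%) and 956 downward (7.84%), or 208 and 735 in the patches.

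At P21 few changes were shown to differ from the surroundings. The rise of Npy was 1.001 larger than in relay spots (adjusted p = 3.97e-05 by edgeR), beside the larger fall of Unc13c than in the rest of the section given above. Among the smallest p-values were those of Mgp, Ptgds, Acta2 and Tagln, genes of the meninges and vessel wall that also mark the scattered members.

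For Gad1, Gad2, Sst and Slc17a7 the members and the relay spots differed more in the aged than in the adult sections. Both sets were chosen by expression within each section. Slide version and probe design go with age here as well and cannot be told apart from it. Gad2 went from 84.1 and 100.2 CPM in adult relay spots to 25.0 and 33.6 in aged relay spots while it rose in members, a difference of 3.101 between the changes. Sst went from 141 and 129.9 to 14.3 and 20.9 in relay spots, a difference of 3.50, and Gad1 differed by 2.70. Slc17a7, in turn, was 1326 and 1462 CPM in adult and 1143 and 1010 in aged relay spots, so that the changes differed by -2.83. Choroid plexus Ttr was lower in both, from 725 and 714 CPM to 37.8 and 34.0 in relay spots. Relay spots of aged sections thus held less Gad2 and Sst, and members less Slc17a7, than in the adult sections, whereas of 10 thalamic relay markers tested in members 1 was higher and 1 lower (median 0.31). The lower one, Zic1, was not called in the patches, where it read 0.0015, and its sign also turned without Spp1 in the score.

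Against the rest of the section, 3 of 6 TRN markers changed more upward in aged members, Gad1, Gad2 and Slc32a1, and 0 more downward, while 7 of 9 cortical and 9 of 9 striatal markers changed more downward and 0 more upward. The cortical and striatal genes entered by the same filter on member spots as above, which favoured falls. Nrgn, the calmodulin-binding protein neurogranin of cortical neurons, went from 396 and 254 CPM to 23.8 and 31.7 in members and from 809.5 and 659 to 1307 and 1083 in the rest, a difference of -4.23. Slc17a7 fell by 2.96 more than in the rest, where it read 1927 and 2146 CPM in adult and 1723 and 1520 in aged sections. Gad1 rose by 0.76 more (adjusted p = 2.12e-07 by edgeR), Gad2 by 0.94, Scn1a by 0.63 and Kcnc1 by 0.75, and Pln by 1.58 (adjusted p = 0.00103) although Pln itself did not pass in members (0.29, adjusted p = 0.356). Of the 85 genes high in the nucleus, which were chosen on these same spots, the change was more upward than in the rest of the section for 52 and more downward for 1.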

How the data were processed

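Deposited counts were used: UMI counts per probe-targeted gene and spot for 19465 genes, made by the authors with Space Ranger (per the file headers version 2.0.0 at P21 and in adults, and 3.1.1 in the aged) and filtered to spots under tissue. Spots with under 500 UMIs were left out (12 in all). The spots share no barcode between slide versions, whereas pairs of sections on the same version share 2607 to 3363 array barcodes, as array positions do. The depth of each section ran from 42422997 to 106783660 UMIs. No doublet caller was run, since a spot holds several cells.

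Members and gene lists were chosen with earlier results of these data known. Relay spots were the top 5% by mean relative CPM of 4 relay genes, members left out. UMIs were summed per section and tested with edgeR 4.0.16 (quasi-likelihood, TMM, limma 3.58.1, R 4.3.3) over all 6 sums. Genes passed filterByExpr and had to be seen in over 10% of the member spots at either age, and score genes were removed. Adjustment was Benjamini-Hochberg over all genes tested. The exact permutation test of 2 against 2 sections cannot go below a two-sided p of 0.3333, so none is given. Member-to-rest ratios used a pseudocount of 1 CPM. The test was tried on simulated data first.

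Named genes were the 10 largest rises and falls per age comparison among called genes of at least 20 CPM whose groups did not overlap, the 15 highest and 5 lowest member-to-rest ratios, the 5 smallest p-values of each region-by-age test, the 3 smallest p-values of each list in each comparison, and a fixed set of TRN genes. Other genes named are list members or were chosen after their values were seen. Alternatives were DESeq2 1.42.0, no TMM, glmTreat, other gene filters, other cut-offs of the score, a score without Spp1, thinned counts, each section left out and a replicate block. The patch alternative was added after seeing the data. Coordinates are from the GRCm38 annotation. List genes absent from the files or stopped by the filter were not tested. Levels in relay spots and in the rest of the section are scaled within the region-by-age fit. Some genes that the rule names are not reported here.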

Additional observations from a re-analysis of the deposited data

Results flagged for a closer look

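The results below drew attention because the test of the region-by-age term itself gave the 5 smallest p-values of its comparison. Each value is the log2 age change in members minus that in the other spots. At P21 against relay spots these were Mgp at -2.13, Ptgds at 1.33, Ttr at -0.93, Nnat at -1.46 and Ccn3 at -1.89. In the patches alone the values were -0.03 for Mgp, -0.39 for Ptgds, -0.95 for Ttr, -0.77 for Nnat and -1.08 for Ccn3. At P21 against the rest of the section they were Mgp at -1.89, Pmp22 at 1.25, Acta2 at -2.77, Tagln at -2.46 and Eln at -2.05, and in the patches 0.36, 1.42, -1.24, -0.84 and -0.41. The vessel wall and meningeal genes among them were thus nearer to 0 or of the other sign in the patches, while Ttr and Pmp22 were not.

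In aged sections against relay spots the genes were Sst at 3.50, Gad2 at 3.101, Slc17a7 at -2.83, Ptgds at -2.78 and Mgp at -3.94. In the patches Sst was 3.39, Gad2 2.94 and Slc17a7 -3.06, whereas Ptgds was 0.07 and Mgp -1.23. Against the rest of the section they were Nrgn at -4.23, Slc17a7 at -2.96, Penk at -5.06, Enc1 at -3.85 and Hpcal4 at -3.77, and in the patches -4.38, -3.20, -5.61, -3.99 and -3.88. These genes of cortical and striatal neurons were as low without the scattered members. Slide version and probe design go with age in both aged comparisons and cannot be told apart from it.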

How the results depend on the processing

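For P21 against adult, the 302 calls became 104 with DESeq2, 75 with glmTreat, 131 and 462 with the top 0.5% and 2% of spots, 164 in spots with all 4 score genes detected, and 160 to 313 when 1 section was left out, the lowest without P21 replicate 1. For aged against adult, the 1972 calls became 896 with DESeq2, 706 with glmTreat, 1259 with the top 0.5%, 977 in spots with all 4 score genes detected, 1192 with thinned counts and 1430 to 2041 with 1 section left out. The 50 P21 differences from relay spots became 25 with the top 2% as relay spots, 28 in the patches and 19 to 52 with a section left out, and the 766 aged ones 485 to 754. The 24 P21 differences from the rest became 9 with the top 2% of spots and 32 to 60 with a section left out. The mean share of members in the largest patch was 62.4% and 65.3% with the top 0.5% and 2%, against 80.4%. With the top 0.5% it was only 29.4% in P21 replicate 2 and 33.3% in adult replicate 1, so that most members there lay outside it.

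In the comparisons where the rule names them, the signs of 9 genes turned with a call on at least 1 side. Turns of sign without a call on either side are counted in the next paragraph. At P21 without Spp1 in the score Cd74 was 1.32, Mgp 1.19, Nnat 0.62, Vim 0.25 and Igfbp5 0.029, with 0.21 for Mgp against relay spots and 0.60 against the rest. In the patches Cd74 was 1.48 and Mgp 0.96 at P21, with -0.39 for Ptgds against relay spots and 0.36 for Mgp against the rest, and in spots with all 4 score genes detected Cd74 was 0.16 and Nnat 1.17. Nnat, not called at P21, also read 0.31 without adult replicate 1 and 0.32 in the patches. In aged sections without Spp1 Ptgds was 0.60, Mgp 0.14, Ifitm3 0.25 and Zic1 0.18, and in the patches Ptgds was 0.58 and Zic1 0.0015. Against relay spots Ptgds was 0.066 and 0.065. Zic1 was 0.027 with the top 2% and 0.070 in spots with all 4 score genes detected, and Hcrt, -3.11 in all members, ran from -4.01 to 4.0035 with a section left out, the highest without adult replicate 2, and was 1.41 with the top 2%. The cause was not tested.

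Replicate numbers are shared between ages, but deviations of same-numbered sections correlated at 0.0483, -0.0045 and 0.0320 over 8206 genes, so the numbers do not pair the sections. With a replicate block the counts were 321 at P21 and 1977 in aged sections. Of the other values, 2622 of the aged and 2519 of the P21 comparison kept their direction and side of the threshold, 184 and 175 lost the call, 34 and 57 gained it, and 23 and 77 changed sign without a call on either side. Depth limits genes under 2.12 to 7.29 CPM in members, and 2 sections per age limit every test.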
